A study of Ovis aries with 24 samples.

Results

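Estradiol (E2) was compared with its ethanol vehicle in sheep pituitary cells that had been sorted as gonadotropes. The comparison holds 12 of the 24 RNA-seq libraries of the series, chosen by their labels: 6 of sorted cells given E2 and 6 of sorted cells given vehicle, set against each other by replicate number. The cells came from the pituitaries of ovariectomized ewes of the Western white faced breed, and were dispersed and grown as primary cultures on plastic. All of them, vehicle cells included, had been infected 24 hours after dispersal with an adenovirus built to express green fluorescent protein (GFP) in gonadotropes. After 3 more days they received 10 nM E2 or vehicle for 6 hours and were then collected by fluorescence-activated sorting. The regulatory sequence that drives GFP, the number of ewes and any pooling of cells were not given in the sources used here. The other 12 libraries are of unsorted cells given the same treatments and serve below only for the comparison of the E2 effects.

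Gonadotropes are the pituitary cells that make luteinizing hormone (LH) and follicle-stimulating hormone (FSH). Both are pairs of a shared alpha subunit (CGA) and a beta subunit of their own (LHB or FSHB), and both are released under gonadotropin-releasing hormone (GnRH) from the hypothalamus, through its receptor GNRHR. E2 from the ovary binds the nuclear receptors ESR1 and ESR2, which act on transcription at their sites in the genome, and in the ewe it is known to raise the pituitary's responsiveness to GnRH before ovulation. Removing the ovaries takes away that source.

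The label of sorted gonadotropes was checked against marker genes in all 24 libraries on one scale, in CPM (counts scaled to the effective library total). GNRHR stood between 3.59 and 9.93 CPM in sorted and between 0.452 and 1.04 CPM in unsorted vehicle libraries, and CGA between 1890.2 and 3649 CPM against 175 and 630.5 CPM. For both genes every sorted vehicle library was above every unsorted one. NR5A1, a transcription factor that marks gonadotropes in the pituitary, stood between 11.6 and 42.0 CPM in sorted and between 2.07 and 9.45 CPM in unsorted vehicle libraries. RAPGEFL1 and AQP1 separated the preparations less or not at all: AQP1 lay between 3.96 and 12.4 CPM in sorted vehicle libraries, and its lowest unsorted vehicle library stood at 3.01 CPM. The sorted libraries were not gonadotrope RNA alone, and the hormone genes of other pituitary cells had higher means there than in unsorted cells, a difference that was not tested. Among vehicle libraries, prolactin (PRL), the hormone of lactotropes, averaged 121619 ± 36899 CPM after sorting against 67489 ± 18637 CPM without it (SD, n = 6 each), and growth hormone (GH) 37377 ± 31419 against 20317 ± 16168 CPM. TSHB averaged 577 ± 355 against 229.9 ± 87.7 CPM, and POMC 315 ± 155 against 169 ± 50.8 CPM. COL1A2, a collagen gene of fibroblasts, had a lower mean in sorted libraries, 216 ± 58.7 against 1522 ± 609.8 CPM. PRL took 7.14 to 16.8% of the counts of sorted vehicle libraries and 6.17 to 15.2% of those of sorted E2 libraries. COL1A2 stood between 137 and 311 CPM in sorted vehicle libraries, and the macrophage gene CSF1R at 0.294 CPM or less. In bulk RNA, a change in the number of cells of a type and a change in the RNA per cell cannot be told apart.

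Total counts per library were 4.19 to 6.19 M for replicates 1 to 3 and 19.2 to 22.5 M for replicates 4 to 6, and principal component 1, with 55.4% of the variance, split the depth sets. In replicates 1 to 3 the E2 libraries, at 4.19 to 5.50 M, were all shallower than the vehicle libraries, at 5.75 to 6.19 M, and in replicates 4 to 6 the ranges overlap. Same-numbered libraries were alike (r of 0.720 to 0.885 after centring each group), and the replicate number is a term of the model. No label says that the replicates are separate animals or cultures, so p-values measure the spread between these libraries, which may be technical.

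Of 14334 genes with enough counts for testing, 1896 changed by edgeR's quasi-likelihood test at an adjusted p under 0.05, which is 13.2%. Among them 1008 (7.03%) rose with E2 and 888 (6.2%) fell. The rises reached further than the falls: 133 genes rose at least 2-fold and 25 at least 4-fold, while 5 fell at least 2-fold. The median change was 0.43 among risen genes, -0.28 among fallen genes and -0.0018 over all tested genes (log2, as are all fold changes below). E2 libraries were above vehicle libraries in 6 of 6 pairs for 806 of the risen genes and below them in 6 of 6 pairs for 685 of the fallen ones. Without the replicate term, 196 genes passed (1.37%), 159 up and 37 down, and all 196 are among the 1896. Of the 133 rises of at least 2-fold, 81 passed that test too. Most falls and the smaller rises thus rest on the comparison within pairs.

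**Figure D1:**
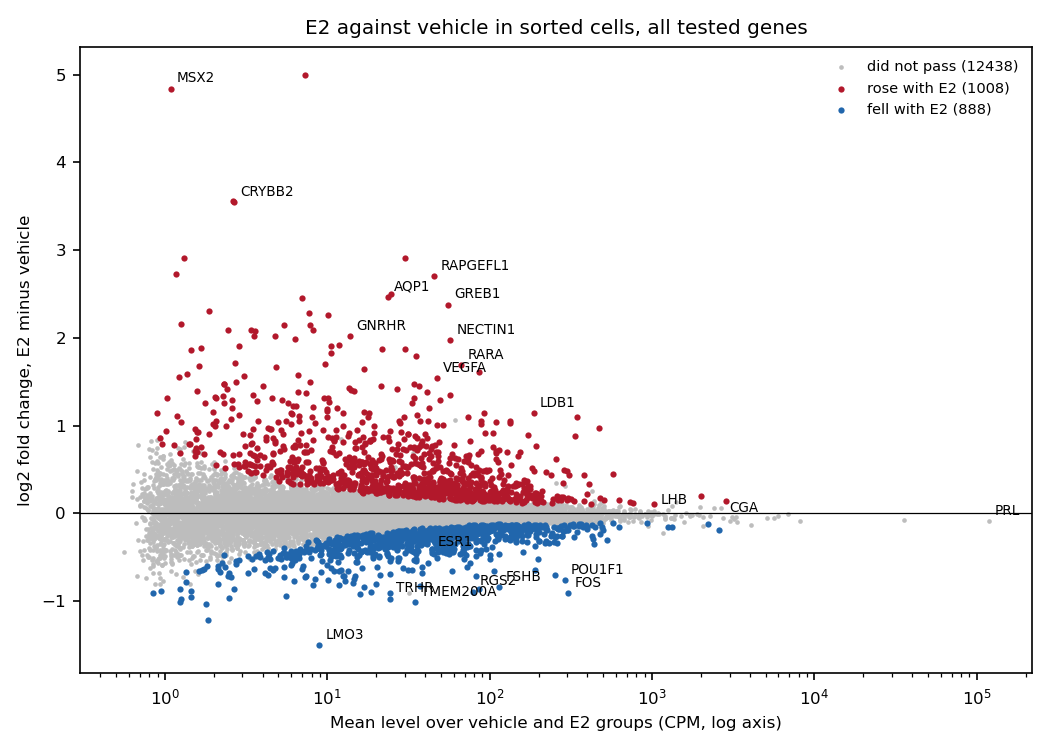
Each point is 1 of 14334 tested genes. The horizontal axis is its mean level over both groups in CPM (log axis) and the vertical axis its log2 fold change, E2 minus vehicle. Red points rose (1008), blue points fell (888) and grey points did not pass. RAPGEFL1 lies at 2.70, and the largest named fall is 1.50, at LMO3.

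GNRHR (ENSOARG00000007526) lay between 3.61 and 10 CPM (median 5.04) with vehicle and between 6.79 and 39.1 CPM (median 19.4) with E2. E2 was higher in each of the 6 pairs, and the groups overlap only through vehicle replicate 1, at 10.0 CPM, and E2 replicate 2, at 6.79 CPM. The receptor gene rose by 2.02 ± 0.18 (log2 ± SE; adjusted p = 1.6e-05, edgeR), by 1.63 in replicates 1 to 3 and 2.18 in replicates 4 to 6. The gonadotropin subunit genes did not follow it. FSHB (ENSOARG00000015425) lay between 74.6 and 213 CPM (median 151) with vehicle and between 48.5 and 121 CPM (median 80) with E2, lower in all 6 pairs although the groups overlap widely. It fell by 0.84 ± 0.063 (adjusted p = 7.1e-08; 0.60 without the replicate term), and was at -0.77 and -0.90 in the 2 depth sets. LHB (ENSOARG00000012583) lay between 429.9 and 1764 CPM (median 1024) with vehicle and between 435 and 1677 CPM (median 975) with E2, higher in 3 pairs and lower in 3, with a change of 0.030 ± 0.12 (adjusted p = 0.93). CGA (ENSOARG00000013153) lay between 1903 and 3624 CPM (median 2795) with vehicle and between 1969 and 3437 CPM (median 2668) with E2, with a change of -0.054 ± 0.043 (adjusted p = 0.53). For both genes the groups cover almost the same range. NR5A1 did not pass either, at -0.024 ± 0.075 (adjusted p = 0.91).

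**Figure D2:**
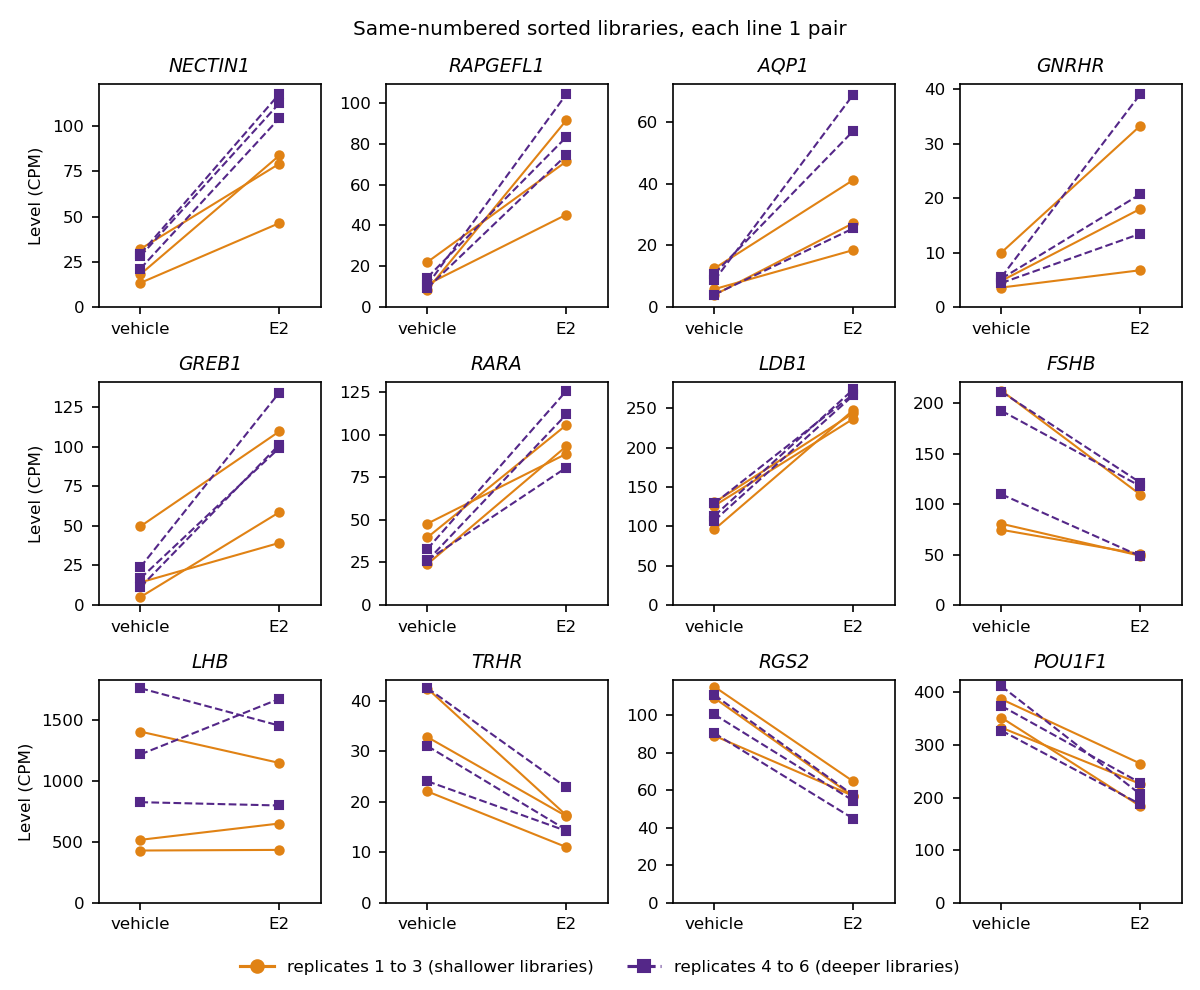
Level in CPM (linear axes from 0) of 12 genes in the 12 sorted libraries. Each line joins the vehicle and E2 library of 1 replicate number, in orange for replicates 1 to 3 and violet for replicates 4 to 6. The lines of NECTIN1, RAPGEFL1, AQP1, GNRHR, GREB1, RARA and LDB1 all rise, those of FSHB, TRHR, RGS2 and POU1F1 all fall, and those of LHB go both ways.

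RAPGEFL1 (ENSOARG00000013357), which resembles the exchange factors that switch on small GTPases of the RAP group, lay between 8.63 and 22.1 CPM (median 11) with vehicle and between 45.3 and 104 CPM (median 78.8) with E2. The groups do not overlap, and it rose by 2.70 ± 0.24 (adjusted p = 0.00091). AQP1 (ENSOARG00000007775), a water channel, lay between 3.97 and 12.5 CPM (median 7.26) with vehicle and between 18.5 and 68.8 CPM (median 34.2) with E2, again without overlap, and rose by 2.47 ± 0.16 (adjusted p = 2.0e-06).

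Large rises were spread over many kinds of protein. Among kinases, JAK3, which signals for cytokine receptors, rose by 2.91 ± 0.41, PKDCC, a secreted tyrosine kinase, by 2.50 ± 0.21, and IRAK2, a kinase of Toll-like receptor signalling, by 1.87 ± 0.17. TLR5, the Toll-like receptor for bacterial flagellin, rose by 1.92 ± 0.32. JAK3 lay between 0.518 and 31.9 CPM (median 4.1) with vehicle and between 15.9 and 111 CPM (median 36.7) with E2. Its 2 groups overlap because vehicle replicate 1 stood at the upper end, and it did not pass without the replicate term (adjusted p = 0.26). Of the ion channel genes, CHRNA10, a nicotinic receptor subunit, rose by 2.15 ± 0.23, and TMEM37, related to calcium channel gamma subunits, by 2.09 ± 0.13. TMEM37 lay between 2.41 and 3.97 CPM (median 3.34) with vehicle and between 9.54 and 19.5 CPM (median 12.5) with E2, with no overlap. NECTIN1, an adhesion protein of cell junctions, lay between 13.4 and 32.1 CPM (median 24.7) with vehicle and between 46.4 and 118 CPM (median 94) with E2, also with no overlap, and rose by 1.97 ± 0.10 (adjusted p = 2.9e-07). MYO7A, an unconventional myosin known from sensory hair cells, rose by 2.15 ± 0.13, and PHACTR3, a regulator of actin and protein phosphatase 1, by 2.03 ± 0.20 (adjusted p = 0.36 without the replicate term). RHBDL3, of the rhomboid protease family, rose by 2.29 ± 0.15, and MFAP3L, a membrane protein, by 2.02 ± 0.20. CBFA2T3, a transcriptional corepressor, lay between 1.21 and 3.45 CPM (median 2.67) with vehicle and between 5.43 and 15.5 CPM (median 11) with E2 and rose by 1.99 ± 0.15. All 20 of the largest rises among genes of at least 5 CPM went up in 6 of 6 pairs, in 11 of them the groups do not overlap (1.16% of all tested genes lie wholly higher with E2), and 16 passed without the replicate term. These 20 were chosen by the size of their rise in the same libraries, which favours such counts.

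Some genes went from near silence to a low level: 13 genes with a symbol had a mean under 1 CPM with vehicle and at least 1 CPM with E2 and rose. MSX2, a homeobox transcription factor, had 5 counts over the 6 vehicle libraries, 3 of which were at 0, and 161 over the 6 E2 libraries (adjusted p = 1.7e-08). Its E2 libraries lay between 0.975 and 3.18 CPM and no vehicle library was above 0.167 CPM. CRYBB2, a crystallin of the eye lens, had 40 counts with vehicle and 470 with E2 and rose by 3.54 ± 0.22, and its neighbour and relative CRYBB3 rose by 2.07 ± 0.17. ADAMTS15, a secreted metalloprotease, had 22 and 163 counts and rose by 2.91 ± 0.30 (adjusted p = 0.088 without the replicate term). KLHL34, a kelch-like protein, rose by 2.16 ± 0.27, SCNN1G, the gamma subunit of the epithelial sodium channel, by 1.88 ± 0.22, and SLC26A10, of an anion transporter family, by 1.56 ± 0.26. In pair 1 KLHL34 was lower with E2, at 0.561 CPM against 0.669 CPM with vehicle. In the opposite direction 3 genes fell from a mean above 1 CPM to one below it. Among these was GHSR, the receptor of ghrelin, which fell by 0.78 ± 0.22 (adjusted p = 0.022; 0.84 without the replicate term).

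Genes known to answer to estrogen in other tissues rose more often than they fell. Of 41 listed, 28 were tested, 10 rose, 2 fell and 16 did not pass, with a median of 0.13 against -0.0018 over all tested genes. Over all tested genes 7.03% rose and 6.2% fell, which is the background for the list counts below as well. The lists were chosen with earlier results of these data known, so their counts are no independent evidence. GREB1 (ENSOARG00000016103), a cofactor of ESR1 and a classic target of it in breast, lay between 5.01 and 49.7 CPM (median 15.5) with vehicle and between 39.2 and 134 CPM (median 100.3) with E2. Its groups overlap through vehicle replicate 1, at 49.7 CPM, and it rose by 2.38 ± 0.33 (adjusted p = 0.0079). RARA (ENSOARG00000014119), the retinoic acid receptor alpha, lay between 24 and 47.8 CPM (median 29.6) with vehicle and between 80.8 and 126 CPM (median 99.6) with E2 without overlap and rose by 1.69 ± 0.17 (adjusted p = 0.0011). RASD1, a small GTPase of the RAS family, lay between 14.3 and 26.8 CPM (median 18.9) with vehicle and between 32.6 and 72.7 CPM (median 42.2) with E2, without overlap, and rose by 1.32 ± 0.082. ELF3, an epithelial ETS factor, rose by 0.74 ± 0.081, CELSR2, a cadherin of planar cell polarity, by 0.53 ± 0.064, and IRS1, the insulin receptor substrate, by 0.40 ± 0.069. Smaller changes went apart for the 2 chaperones of steroid receptors: FKBP4 rose by 0.19 ± 0.037 and FKBP5 fell by 0.30 ± 0.049. Of the 10 rises 5 passed without the replicate term, and neither fall did.

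Of the 2 estrogen receptor genes, 1 passed. ESR1 (ENSOARG00000003344) lay between 41 and 60.1 CPM (median 49.8) with vehicle and between 32.4 and 40.8 CPM (median 37.9) with E2, so all E2 libraries were below all vehicle libraries, and it fell by 0.45 ± 0.063 (adjusted p = 3.7e-05; 0.069 without the replicate term). ESR2, at 1.41 to 4.13 CPM over both groups, stood at -0.43 ± 0.15 and was lower in 6 of 6 pairs, but did not pass (adjusted p = 0.063). Among 33 nuclear receptors tested, 5 rose and 5 fell (median -0.024). NR3C1, the glucocorticoid receptor, rose by 0.35 ± 0.047 and PPARA, a fatty acid sensor, by 0.58 ± 0.11. VDR, the vitamin D receptor, fell by 0.43 ± 0.082. Of these only RARA passed without the replicate term. In the retinoid pathway, DHRS3, which reduces retinal, rose by 0.54 ± 0.082, and 15 of the 18 members tested did not pass.

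Among the coregulator genes that passed, the corepressors NCOR1 and NRIP1 rose with E2, and the coactivators NCOA1 and NCOA2 fell. Most coactivators on the list did not pass, with changes in both directions. NCOA1, CITED1 and CITED2 were named after their values were seen. NCOR1 (ENSOARG00000017147), which bridges unliganded receptors to histone deacetylases, lay between 245 and 259.6 CPM (median 248) with vehicle and between 305 and 335 CPM (median 313) with E2, without overlap, and rose by 0.35 ± 0.036 (adjusted p = 5.8e-07). NRIP1, a corepressor that binds liganded receptors, lay between 57.8 and 92.3 CPM (median 67.6) with vehicle and between 97.1 and 200.5 CPM (median 151) with E2, without overlap, and rose by 1.04 ± 0.070. The coactivators NCOA1 and NCOA2 fell by 0.26 ± 0.044 and 0.44 ± 0.058, and CITED1 and CITED2, partners of the histone acetyltransferases p300 and CBP, by 0.35 ± 0.068 and 0.59 ± 0.11. One coactivator rose, PPARGC1B, by 0.83 ± 0.13. With the chaperones, 5 of 23 members rose, 5 fell and 13 did not pass (median -0.022). Without the replicate term NCOR1, NRIP1 and NCOA2 still passed.

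Among transcription factors that build pituitary cell types, falls outnumbered rises, and most members did not pass. Of 20 tested, 7 fell, 2 rose and 11 did not pass (median -0.20). POU1F1 (ENSOARG00000017058), which specifies somatotropes, lactotropes and thyrotropes, lay between 327 and 412 CPM (median 363) with vehicle and between 184 and 264 CPM (median 216) with E2. The groups do not overlap, and it fell by 0.76 ± 0.054 (adjusted p = 5.1e-08). PITX1, a homeobox factor of the early pituitary, did not pass, at -0.14 ± 0.072 (adjusted p = 0.25). SIX6, a homeobox factor as well, fell by 0.44 ± 0.067. The 2 rises were NEUROD4 and LHX3. NEUROD4, a basic helix-loop-helix factor, lay between 12.3 and 26.6 CPM (median 17.7) with vehicle and between 41.5 and 62.8 CPM (median 49.3) with E2, without overlap, and rose by 1.48 ± 0.085. LHX3, a LIM homeobox factor needed for the pituitary to form, rose by 0.36 ± 0.076 (adjusted p = 0.0035; 1.0 without the replicate term).

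LIM homeobox factors work with the bridging protein LDB1, and LMO proteins compete for it. Of 10 such genes tested, 3 rose and 4 fell. LDB1 (ENSOARG00000017427) lay between 96 and 130.3 CPM (median 119.6) with vehicle and between 237 and 274 CPM (median 257) with E2. Within each group its 6 libraries were close together and far from the other group, and it rose by 1.14 ± 0.059 (adjusted p = 2.2e-09). LMO3 (ENSOARG00000020573) lay between 9.67 and 18.6 CPM (median 12.5) with vehicle and between 3.28 and 6.87 CPM (median 4.52) with E2, without overlap, and fell by 1.50 ± 0.10 (adjusted p = 3.4e-09). LMO4 fell by 0.38 ± 0.053, while LMO2 rose by 0.96 ± 0.16, and neither of these passed without the replicate term.

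**Figure D3:**
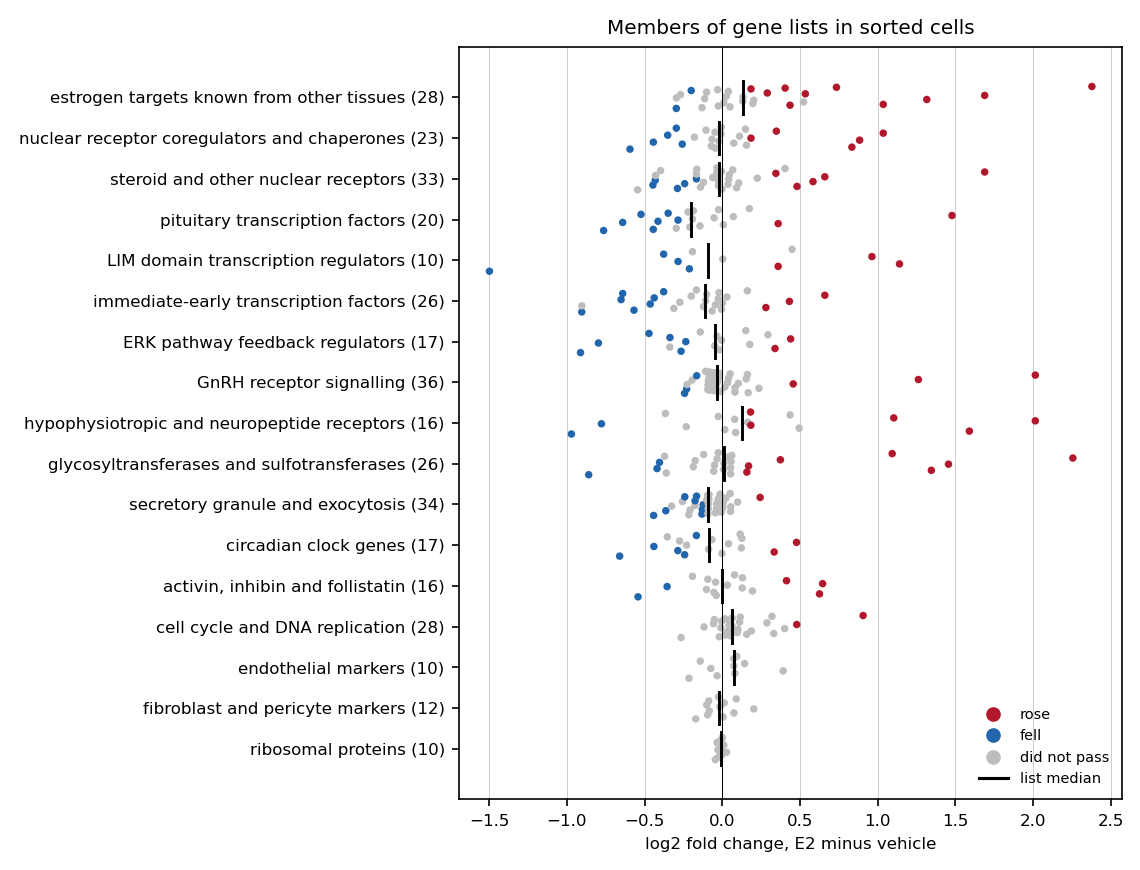
Each point is the log2 fold change, E2 minus vehicle, of 1 tested member of a gene list, with the number of tested members in brackets. Red points rose, blue points fell, grey points did not pass, and black bars are list medians. The ribosomal protein and fibroblast lists sit around 0 with no coloured point, while the estrogen target list extends to 2.38 at GREB1.

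Immediate-early genes, whose transcription starts soon after a stimulus, and the feedback inhibitors of ERK kinase signalling were among the falls. FOS (ENSOARG00000001783), a subunit of the AP-1 factor, lay between 291 and 564 CPM (median 367) with vehicle and between 146 and 354 CPM (median 193) with E2, lower in 6 of 6 pairs, and fell by 0.90 ± 0.17 (adjusted p = 0.025). That call was lost without replicate 2, 3, 4 or 5. JUN, its partner, lay between 94.5 and 159 CPM (median 137) with vehicle and between 69.6 and 103 CPM (median 77.5) with E2 and fell by 0.65 ± 0.075 (adjusted p = 5.4e-05). EGR1, a mediator of GnRH action on LHB, fell by 0.64 ± 0.12 (a call lost without replicate 3), JUNB by 0.46 ± 0.077 and ATF3 by 0.44 ± 0.075. Of 26 members tested, 7 fell, 3 rose and 16 did not pass (median -0.11), and of the falls only that of JUN passed without the replicate term. BTG1, an antiproliferative gene, rose by 0.43 ± 0.046. Among 17 ERK feedback genes, 6 fell and 2 rose. SPRY1 (ENSOARG00000017093), an inhibitor of receptor tyrosine kinase signalling, lay between 22.4 and 39.1 CPM (median 32.3) with vehicle and between 13.2 and 22.7 CPM (median 15.9) with E2. It fell by 0.91 ± 0.071 (adjusted p = 1.7e-08), its relative SPRY2 by 0.80 ± 0.093, SPRED1 by 0.47 ± 0.069 and the phosphatase DUSP1 by 0.34 ± 0.067. DUSP14 rose by 0.44 ± 0.10. SPRY1 alone of these passed without the replicate term.

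RGS2 (ENSOARG00000009653), which shuts off the Gq proteins that GNRHR signals through, lay between 89.1 and 115 CPM (median 105) with vehicle and between 44.8 and 64.7 CPM (median 56.8) with E2. The groups do not overlap, and it fell by 0.89 ± 0.049 (adjusted p = 1.9e-10). Of 12 RGS genes tested it was the 1 that fell, and 1 rose. Of 36 genes of GnRH signalling tested, GNRHR included, 3 rose, 3 fell and 30 did not pass (median -0.035). The share called was 16.7% in this list and in the RGS list, near the 13.2% of all tested genes. Beside GNRHR, the kinase gene MAPK8 (JNK1) rose by 0.46 ± 0.061 and NFATC1, a calcium-responsive transcription factor, by 1.26 ± 0.25. In the cyclic AMP pathway 3 of 27 genes rose and 3 fell. ADCY5 and ADCY1, which make cyclic AMP, rose by 1.10 ± 0.16 and 0.82 ± 0.12, and PDE4D, which degrades it, fell by 0.51 ± 0.081. None of these 5 genes passed without the replicate term.

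Small GTPases and their exchange factors held more calls, with 9 of 32 up and 5 down around a median of 0.00087. Beside RAPGEFL1 and RASD1, the RAP exchange factor RAPGEF1 rose by 0.57 ± 0.061 and RHOU, a small GTPase, by 0.55 ± 0.092, while RND3 and RHOB, also small GTPases, fell by 0.56 ± 0.087 and 0.49 ± 0.077.

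Receptors for other hypothalamic signals went both ways. TRHR (ENSOARG00000014552), the thyrotropin-releasing hormone receptor of lactotropes and thyrotropes, lay between 22.1 and 42.6 CPM (median 32) with vehicle and between 11 and 22.9 CPM (median 15.8) with E2. It was lower in 6 of 6 pairs, though the highest E2 library stood just above the lowest vehicle library, and it fell by 0.97 ± 0.073 (adjusted p = 1.2e-08). The somatostatin receptors SSTR2 and SSTR5 rose by 1.59 ± 0.24 and 1.10 ± 0.13. SSTR5 lay between 2.42 and 5.85 CPM (median 4.5) with vehicle and between 2.81 and 14.7 CPM (median 9.2) with E2. Neither passed without the replicate term. GHRHR, the receptor of growth hormone-releasing hormone, rose by 0.18 ± 0.049. In all, 5 of 16 tested receptors rose and 2 fell, and 39 were listed.

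The other genes of excitability named here, CHRNA10 aside, moved by less than TMEM37. Of 20 voltage-gated calcium and sodium channel genes, 3 rose and 4 fell. CACNA2D2, an auxiliary calcium channel subunit, lay between 122 and 178 CPM (median 162) with vehicle and between 179 and 234 CPM (median 189.5) with E2 and rose by 0.31 ± 0.054, while the sodium channel subunit SCN3B fell by 0.46 ± 0.064 and SCN3A by 0.33 ± 0.048. Of 34 potassium channel genes 3 rose, the calcium-activated KCNN2 by 0.39 ± 0.057 among them, and 3 fell, such as KCNJ3 by 0.47 ± 0.10. Of 24 ligand-gated receptor subunits on the list, 4 fell and 0 rose, and the nicotinic subunits CHRNB4 (0.55 ± 0.12) and CHRNA3 (0.53 ± 0.14) are among the falls. CHRNA10, the nicotinic subunit with the large rise given above, is not on that list. Calls made up 35%, 17.6% and 16.7% of the voltage-gated, potassium and ligand-gated lists, against 13.2% of all tested genes. The fall of CHRNA3 was lost without replicate 5 or 6, and the gene was at 0.039 in replicates 1 to 3 against -0.72 in replicates 4 to 6. GJD2, a neuronal gap junction protein, fell by 0.77 ± 0.10, lower in 6 of 6 pairs.

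Among genes of secretion, falls outnumbered rises. Of 34 granule and exocytosis genes, 8 fell and 1 rose, with a median of -0.090. The share called was 26.5%, against 13.2% of all tested genes. RAB3A, a GTPase of secretory vesicles, lay between 45.3 and 66.5 CPM (median 53) with vehicle and between 30.1 and 49.1 CPM (median 42.8) with E2 and fell by 0.44 ± 0.063, RAB27A by 0.24 ± 0.043 and the vesicle protein SYT4 by 0.18 ± 0.037. SYT7, another synaptotagmin, rose by 0.24 ± 0.058, a call lost without replicate 5. None of the 9 passed without the replicate term.

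Enzymes that build glycan chains held some of the larger rises: 7 of 26 rose and 3 fell, around a median of 0.0096. MGAT3 (ENSOARG00000016677), which adds the bisecting N-acetylglucosamine to N-glycans, lay between 2.06 and 4.95 CPM (median 3.79) with vehicle and between 9.05 and 23.6 CPM (median 16.8) with E2, without overlap, and rose by 2.26 ± 0.13. B4GALNT3, which adds N-acetylgalactosamine to N-glycans, lay between 4.3 and 16.4 CPM (median 11.3) with vehicle and between 10.4 and 44.5 CPM (median 34.7) with E2 and rose by 1.46 ± 0.092 (adjusted p = 1.1e-09; 0.051 without the replicate term). CHST8, a sulfotransferase for that sugar on LH, lay between 36.3 and 78.7 CPM (median 40.4) with vehicle and between 66.1 and 149 CPM (median 98.5) with E2 and rose by 1.09 ± 0.17 (adjusted p = 0.0095). ST8SIA5, a sialyltransferase, rose by 1.35 ± 0.14, and another, ST3GAL6, fell by 0.42 ± 0.066.

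Activin, made in the pituitary itself, drives FSHB through SMAD proteins, and follistatin (FST) binds and blocks it. FST lay between 8.08 and 12.9 CPM (median 11.2) with vehicle and between 5.56 and 9.14 CPM (median 8.11) with E2 and fell by 0.54 ± 0.10. The signal transducer SMAD3 lay between 7.05 and 14.8 CPM (median 10.6) with vehicle and between 7.92 and 20.7 CPM (median 18.7) with E2 and rose by 0.65 ± 0.10, the activin receptor ACVR1B by 0.41 ± 0.068 and TGFBR3 (betaglycan), the coreceptor through which inhibin acts, by 0.63 ± 0.086. ACVR1, a receptor used mainly by BMPs, fell by 0.35 ± 0.053. These 3 rises and 2 falls were the calls among 16 genes tested (median -0.0028), and only ACVR1 passed without the replicate term. On the BMP side SMAD9 fell by 0.71 ± 0.085 and SMAD1 by 0.36 ± 0.057, 2 of 5 falls beside 3 rises among 31 genes. In the insulin-like growth factor system 4 of 16 genes rose, the receptor IGF1R by 0.32 ± 0.049 and the binding protein IGFBP3 by 0.49 ± 0.078 among them, and 1 fell.

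VEGFA (ENSOARG00000008334), the growth factor of blood vessels, lay between 17.4 and 38.1 CPM (median 22.2) with vehicle and between 52.6 and 90.9 CPM (median 66.2) with E2. The groups do not overlap, and it rose by 1.54 ± 0.075 (adjusted p = 1.9e-10), as the 1 rise among 33 receptor tyrosine kinases and ligands, of which 4 fell. NRP1, a coreceptor for VEGFA and semaphorins, lay between 74.4 and 158 CPM (median 109) with vehicle and between 51.1 and 74.6 CPM (median 58.3) with E2 and fell by 0.86 ± 0.069. Axon guidance genes as a group went both ways, 6 of 52 up and 7 down. SEMA6D fell by 0.89 ± 0.079 and SEMA3A by 0.62 ± 0.10, whereas SEMA4D rose by 0.72 ± 0.064 and the ephrin receptor EPHB3 by 0.96 ± 0.14.

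Of 17 clock genes 5 fell and 2 rose. NFIL3 and TEF, which compete for the same DNA sites with opposite effect on transcription, moved apart: NFIL3 lay between 61.5 and 85.8 CPM (median 71) with vehicle and between 39.4 and 54.1 CPM (median 44) with E2 and fell by 0.66 ± 0.064, and TEF rose by 0.48 ± 0.057. PER1 fell by 0.44 ± 0.051 and ARNTL (BMAL1) rose by 0.33 ± 0.066. In the unfolded protein response, ERN1 (IRE1 alpha), a sensor in the endoplasmic reticulum, lay between 15.5 and 26.9 CPM (median 22.2) with vehicle and between 47.9 and 74.3 CPM (median 60.9) with E2, without overlap, and rose by 1.39 ± 0.10 (adjusted p = 1.3e-06), while among the 23 members tested 1 other rose and 3 fell, EDEM1 by 0.46 ± 0.061 among them. TOP2A, a topoisomerase of dividing cells, lay between 17 and 32.8 CPM (median 20.1) with vehicle and between 33.9 and 48.8 CPM (median 39.3) with E2, without overlap, and rose by 0.91 ± 0.074, yet 26 of 28 cell cycle and replication genes did not pass. MAX, the partner of MYC, rose by 0.63 ± 0.065 and MNT, which competes with MYC for it, fell by 0.72 ± 0.13.

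Several groups held no calls, or a share of calls near or below that of all tested genes. Among 10 ribosomal protein genes 0 passed, among 12 fibroblast and pericyte markers 0, among 10 endothelial markers 0, among 5 immune cell markers 0 and among 4 corticotrope markers 0 (edgeR). In lists this short, 0 calls would not be unusual at the 13.2% called over all tested genes. The tested endothelial markers had vehicle means of at most 10.1 CPM and the immune markers of at most 9.04 CPM. At an unadjusted p under 0.05 there were 2 genes among the 41 of these 5 lists, the endothelial gene ENG and the immune gene CD74, and DESeq2 called 0. The collagen and matrix list held 2 rises of 29, the apoptosis list 2 falls of 21 and the cholesterol and fatty acid list 3 falls of 22. In turn, 6.9%, 9.5% and 13.6% of these lists were called, against 13.2% of all tested genes. The summed level of 13 fibroblast and pericyte markers ranged from 855 to 1817 CPM with vehicle and from 892 to 2180 CPM with E2, higher with E2 in 3 of 6 pairs. That of 11 endothelial markers ranged from 20.6 to 52.6 CPM and from 20.9 to 58.1 CPM, and was higher with E2 in 6 of 6 pairs. The part of these cells in the results was not tested.

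Hormone genes of other pituitary cells were measured beside those of gonadotropes. PRL lay at -0.090 ± 0.051 (adjusted p = 0.32), GH, whose near-identical copies in sheep make its counts uncertain, at -0.078 ± 0.050 (adjusted p = 0.40), and POMC of corticotropes at -0.065 ± 0.14 (adjusted p = 0.86). TSHB, the thyrotropin subunit, lay between 219.5 and 1167 CPM (median 519.7) with vehicle and between 176 and 968 CPM (median 396) with E2 and fell by 0.30 ± 0.046, lower in 6 of 6 pairs (adjusted p = 0.00012; 1.0 without the replicate term). The summed lactotrope, somatotrope and thyrotrope markers were each lower with E2 in 5 of 6 pairs. Each sum is mostly 1 gene: PRL, GH and CGA, with vehicle means of 121411, 37098 and 2782 CPM. CGA is the alpha subunit that gonadotropes make too, and TSHB averaged 576 CPM with vehicle, so the thyrotrope sum does not mark thyrotropes alone. With vehicle and E2 in turn, the lactotrope sum was 66981 to 179665 and 57058 to 157899.7 CPM, the somatotrope sum 9132 to 92706 and 8877 to 75393 CPM, and the thyrotrope sum 2434 to 4112 and 2282 to 4049 CPM. For the falls of TRHR and POU1F1, which those cells use, the part of such shifts was not tested.

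The remaining large falls were of genes with mixed roles. TMEM200A, a membrane protein, lay between 37.8 and 63.3 CPM (median 40.6) with vehicle and between 19.2 and 33.2 CPM (median 22) with E2, without overlap, and fell by 1.01 ± 0.084 (adjusted p = 1.2e-07). ELAVL4, an RNA-binding protein of neurons, lay between 22.7 and 27.8 CPM (median 24.8) with vehicle and between 11.5 and 18.3 CPM (median 14.8) with E2, also without overlap, and fell by 0.81 ± 0.078. ASB4, of a family of ubiquitin ligase adaptors, fell by 0.84 ± 0.080, LURAP1L by 0.92 ± 0.093, GPR85, an orphan receptor, by 0.76 ± 0.10, BCL3, a cofactor of NF-kappaB, by 0.82 ± 0.13, and the neuronal surface proteins SLITRK5 and LRRTM4 by 0.82 ± 0.11 and 0.75 ± 0.10. PDK4, which restrains pyruvate use by mitochondria, lay between 172 and 589.6 CPM (median 282) with vehicle and between 109 and 328 CPM (median 175) with E2 and fell by 0.70 ± 0.043 (adjusted p = 6.4e-10; 0.53 without the replicate term). All 20 of the largest falls among genes of at least 5 CPM went down in 6 of 6 pairs. In 9 the groups do not overlap, against 0.398% of all tested genes lying wholly lower with E2, and 11 passed without the replicate term. These 20 were chosen by the size of their fall in the same libraries, which favours such counts.

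**Figure D4:**
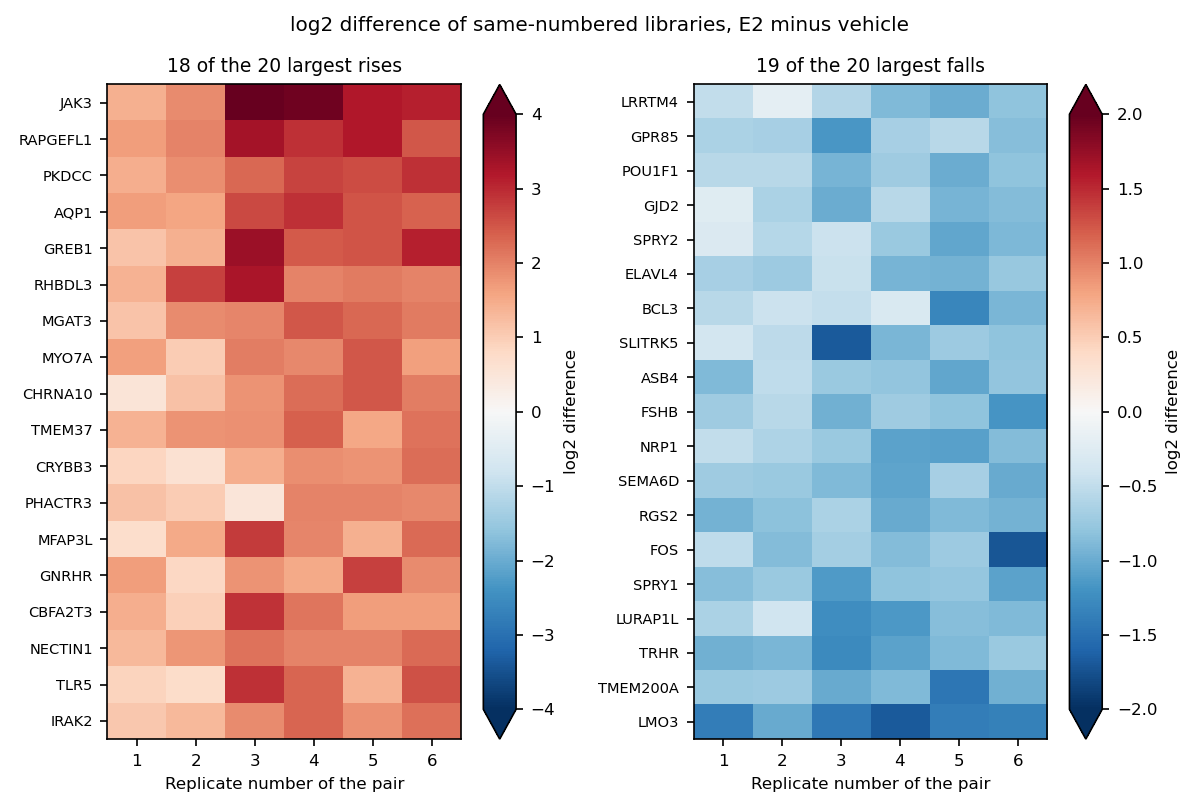
Rows are 18 of the 20 largest rises (left) and 19 of the 20 largest falls (right) among genes of at least 5 CPM, columns are the 6 pairs of same-numbered libraries, and colour is the log2 difference of CPM with 0.5 added, E2 minus vehicle. The 2 panels have separate colour scales. Every rise is red and every fall blue in all 6 pairs, and pair 1 is paler than most in the left panel.

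Abundant genes changed by little. The 10 most abundant changed genes moved by at most 0.20 in either direction. HSPA8, a constitutive heat shock protein, rose by 0.20 ± 0.032 (adjusted p = 0.00013) from a mean of 1867 ± 222 CPM (SD, n = 6). ALDH1A1, an enzyme that makes retinoic acid, fell by 0.15 ± 0.034 and ITGB1, an integrin chain, by 0.15 ± 0.033.

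The size of the rises differed between pairs, and was smallest in pairs 1 and 2. Over the 133 genes that rose at least 2-fold, the median log2 difference was 0.93 in pair 1, 1.06 in pair 2 and between 1.29 and 1.46 in pairs 3 to 6, and E2 was higher in 126 to 133 of the genes in each pair. Vehicle replicate 1 was the highest vehicle library for 66 of the 133, and vehicle replicate 5 for 35. Without pair 1, 957 genes rose and 769 fell. Of 1842 changed genes that could be tested in both depth sets, 1834 had one sign in both. These genes were called over all 6 pairs, both sets included, so the choice of genes favours agreement in sign. The difference between the sets passed for 1 gene (0.00698% of those tested), CYP1A1, a target of the aryl hydrocarbon receptor, which was at -0.10 in replicates 1 to 3 and 0.64 in replicates 4 to 6 (difference 0.75 ± 0.10, adjusted p = 0.015) and did not pass over all 6 pairs.

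E2 effects in sorted cells were set against those in unsorted cells in one fit of the 24 libraries, with a term for each preparation and replicate number. The difference of the effects passed for 357 of 15134 genes (2.36%), 251 (1.66%) with a higher value in sorted cells and 106 (0.7%) with a lower one. Of the 251, 223 had risen in sorted cells, and of the 106, 82 had fallen there. These rises and falls were called in the same sorted libraries that enter the difference, which favours such overlap. The 2 counts are thus no separate evidence that sorted cells responded more. Among the 133 rises of at least 2-fold, 50 were larger in sorted cells and 0 smaller. The 133 were chosen by their rise in the same sorted libraries, which favours a larger value there, so this count is no separate evidence. CBFA2T3 differed by 1.41 ± 0.26 (adjusted p = 0.0021), with an effect of 0.57 in unsorted cells, RHBDL3 by 1.37 ± 0.20 (unsorted 0.91) and VEGFA by 1.15 ± 0.14 (unsorted 0.39). KREMEN1, a receptor that dampens Wnt signalling, rose by 1.37 ± 0.11 in sorted cells and was at 0.17 in unsorted ones, a difference of 1.21 ± 0.12 (adjusted p = 1.3e-06). CABLES2 and SYNJ2, an inositol phosphatase, rose by 1.38 ± 0.13 and 1.41 ± 0.12 in sorted cells and stood at 0.10 and 0.16 in unsorted ones. RARA differed by 1.11 ± 0.18, LDB1 by 0.59 ± 0.090 and NRIP1 by 0.76 ± 0.089. Among falls, RGS2 stood at -0.12 in unsorted cells, a difference of -0.78 ± 0.077 (adjusted p = 1.3e-06), LMO3 differed by -1.01 ± 0.15 and FOS by -1.20 ± 0.21. CHRM3, the muscarinic receptor M3, did not pass in sorted cells (-0.24 ± 0.10) and was at -1.44 in unsorted cells, a difference of 1.20 ± 0.15. Genes whose rise was smaller in sorted cells were fewer, such as CA8, related to carbonic anhydrases, with 0.78 against 2.25 (difference -1.47 ± 0.30), GPR101, an orphan receptor, with 0.60 against 1.58 (difference -0.98 ± 0.19) and FBP1, of gluconeogenesis, with 0.69 against 1.46 (difference -0.77 ± 0.15). For GNRHR the difference was -0.97 ± 0.31 (adjusted p = 0.14), for RAPGEFL1 0.32 ± 0.34 (adjusted p = 0.78), for AQP1 -0.090 ± 0.25 (adjusted p = 0.94) and for FSHB -0.026 ± 0.089 (adjusted p = 0.95), none of which passed. Without replicate terms the difference passed for 4 genes, all higher in sorted cells.

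**Figure D5:**
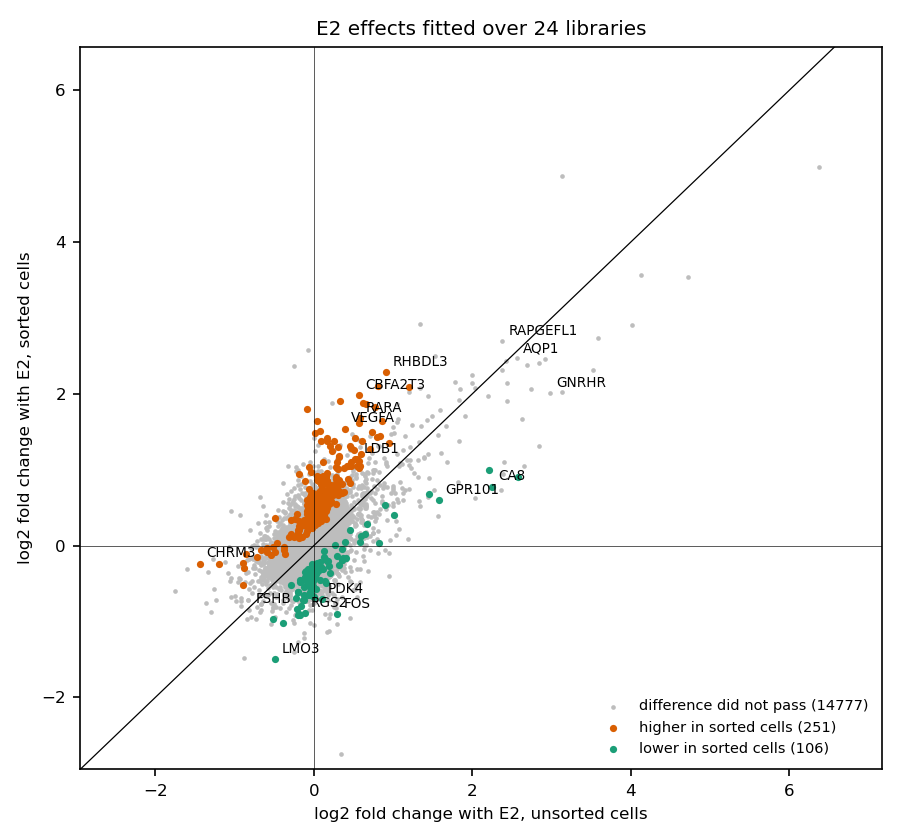
Each point is 1 of 15134 genes, with its log2 fold change with E2 in unsorted cells on the horizontal and in sorted cells on the vertical axis, from one fit of 24 libraries. The diagonal marks equal effects, and coloured points are genes whose difference passed (251 higher and 106 lower in sorted cells). GNRHR, RAPGEFL1 and AQP1 are grey and lie near the diagonal or below it.

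Genes that rose often lay next to other genes that rose. Gene order was taken from the RefSeq sheep annotation, in which 10619 of 11235 tested symbols were found and 6406 pairs of neighbouring genes were both tested. Of the neighbours of risen genes 24.7% rose too, against 7.90% of all genes in these pairs, and of the neighbours of fallen genes 14.5% fell, against 7.20%. A risen gene had a fallen neighbour in 4.94% of places. Leaving out the 639 pairs that overlap in the annotation, where reads can be shared, the shares were 23.1% against 8.05% and 14.2% against 7.45%. Among the 125 pairs that both rose are CRYBB3 with CRYBB2, AQP1 with GHRHR, RAPGEFL1 with CASC3, which rose by 0.17 ± 0.048 (a call lost without replicate 3 or 6), and FRMD3 with RASEF, which rose by 1.14 ± 0.22 and 1.21 ± 0.21. GREB1 rose together with both of its neighbours, E2F6 by 0.58 ± 0.070 and NTSR2 by 0.40 ± 0.093. POU1F1 and CHRNA3 are in the 67 pairs that both fell, the second with CHRNB4.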

How the data were processed

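RNA was sequenced in 12 libraries of sorted and 12 of unsorted cells, 6 each with E2 and with vehicle, prepared with an Illumina TruSeq kit per the labels. The deposited counts are whole reads per gene for 27054 Ensembl sheep features, 14395 of them with a gene symbol, and per the submitters' processing notes featureCounts 1.5.1 made them. The aligner, genome build and strand setting were not given in the sources used here. Reads of genes that overlap, antisense partners included, cannot be told apart, nor those of near-identical copies. The authors' deposited table of this comparison, which holds log2 fold changes and p-values per the file headers and names edgeR in its title, called 211 genes (185 up, 26 down), of which 202 are called here too (95.7% of theirs, 10.7% of the calls here). It was not used otherwise.

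Groups were compared with edgeR (version 4.0.16, R version 4.3.3). It used TMM factors, genes kept by filterByExpr, a robust quasi-likelihood fit and its F-test, with Benjamini-Hochberg adjustment over all genes tested and a threshold of 0.05. The replicate number was a term (block), since the comparison is defined by pairs. The pairing was checked: libraries centred by group correlated with their own number at 0.720 to 0.885 and best with it in 6 of 6 cases in each group. The labels do not say what a number shares. Levels are CPM on TMM-scaled totals. SE is the size of the log2 fold change divided by the root of F. Pair differences add 0.5 CPM. On simulated counts of 14214 genes the fit recovered 66.7%, 87.8%, 100% and 100% of log2 changes of 0.3, 0.6, 1 and 2, and called 0.121% of unchanged genes. Those counts were drawn from the fitted model itself, with the same change in all pairs and 48 to 50 changed genes per size. The rates may not carry over to the real counts.

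Members and 48 gene lists were chosen with earlier results of these data known. Genes named are a selection from the 20 largest rises and falls of at least 5 CPM, the 8 largest rises from under 1 CPM, fixed pituitary and E2 response genes, the members (at most 6 a list) of smallest p, the 8 largest differences each way from unsorted cells and the 10 most abundant changed genes. E2F6, NTSR2, CASC3, FRMD3 and RASEF (as neighbours), CHST8, CITED1, CITED2, FKBP4, NCOA1, ENG, CD74 and CYP1A1 fall outside these rules and were named after their values were seen. Some genes that meet the rules are not reported here. Gene neighbours come from RefSeq (assembly ARS-UI_Ramb_v3.0), used for order only. Alternatives were no block, RLE (the size factors of DESeq2 1.42.0), library totals, DESeq2, a stricter filter (1 CPM in 6 libraries), no filter, non-robust estimation, each depth set and each pair left out.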

Additional observations from a re-analysis of the deposited data

Results flagged for a closer look

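Of the 152 genes named in the report, 56 had an E2 effect in sorted cells that differed from the one in unsorted cells by the edgeR test of the difference itself (adjusted p under 0.05 over 15134 genes, of which 2.36% passed). Genes were named partly by this difference or by their E2 effect in sorted cells, so their share cannot be set against 2.36%. The values are log2 differences, sorted minus unsorted. Of the 56, 27 are higher in sorted cells. Among receptors, adhesion and guidance genes they are 0.88 for TMEM37, 1.37 for RHBDL3, 1.25 for SCNN1G, 0.43 for CELSR2, 1.00 for EPHB3 and 0.55 for SEMA4D. Among signalling genes they are 1.15 for VEGFA, 1.21 for KREMEN1, 1.25 for SYNJ2, 1.28 for CABLES2, 0.77 for ERN1, 0.86 for RASD1, 0.47 for RAPGEF1, 0.70 for SMAD3, 0.41 for ACVR1B and 0.34 for IGFBP3. Among transcription regulators they are 1.41 for CBFA2T3, 1.11 for RARA, 0.76 for NRIP1, 0.20 for NCOR1, 0.76 for PPARGC1B, 0.61 for ELF3, 0.59 for LDB1 and 0.85 for LHX3. DHRS3 of the retinoid pathway differed by 0.42 and the topoisomerase TOP2A by 0.85. CHRM3, at 1.20, did not pass in sorted cells and fell in unsorted cells, and LHX3 rose in sorted and fell in unsorted cells.

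The other 29 are lower in sorted cells, and 26 of them fell there. The difference is -1.20 for FOS, -0.53 for JUN, -0.60 for JUNB, -0.71 for SPRY1, -0.63 for SPRY2, -0.40 for SPRED1, -0.39 for DUSP1 and -0.78 for RGS2, which are immediate-early or feedback genes. For transcription factors it is -1.01 for LMO3, -0.36 for LMO4, -0.37 for SIX6 and -0.65 for NFIL3. In the activin and BMP pathways it is -0.51 for FST, -0.28 for ACVR1 and -0.30 for SMAD1. TRHR and TSHB of thyrotropes differed by -0.46 and -0.43. The remaining genes that fell are TMEM200A at -0.63, LURAP1L at -0.74, SEMA6D at -0.70, ASB4 at -0.63, PDK4 at -0.80, EDEM1 at -0.34, SYT4 at -0.32, RND3 at -0.59 and RHOB at -0.47. CA8, GPR101 and FBP1, at -1.47, -0.98 and -0.77, rose in both preparations and by less in sorted cells.

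In 17 of 304 groups of 6 libraries, 1 library lay far from the other 5, where chance alone flags about 1 in 20. Vehicle replicate 1 was the high one in 7 of them: JAK3 stood there at 31.9 CPM, PKDCC at 18.9 CPM, PHACTR3 at 5.18 CPM, GNRHR at 10.0 CPM, ADAMTS15 at 1.34 CPM, LMO2 at 8.03 CPM and IGFBP3 at 37.8 CPM. All 7 genes rose with E2. Each of these calls was kept without pair 1. In the same pair E2 replicate 1 was high for LMO2, at 10.5 CPM, and ADCY1, at 25.4 CPM, and low for KCNN2, at 33.3 CPM. The others were CA8 in E2 replicate 5 at 12.9 CPM, FOS in E2 replicate 3 at 354 CPM, TMEM200A in E2 replicate 2 at 33.2 CPM, CYP1A1 in vehicle replicate 5 at 524 CPM, NCOR1 in vehicle replicate 6 at 259.6 CPM, and NR3C1 and NTSR2 in vehicle replicate 4 at 153 and 19.2 CPM.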

How the results depend on the processing

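With no replicate block 196 genes changed (159 up, 37 down) in place of 1896, and 4 in place of 357 differed between preparations (4 higher, 0 lower in sorted cells); 88 of the 152 named genes lost their call, none reversed, and the common dispersion was 0.081 in place of 0.0041. Replicates 1 to 3 alone gave 563 calls (389 up, 174 down), and replicates 4 to 6 alone 560 falls (717 rises). DESeq2 with the block gave 585 falls (724 rises) and lost 4 named calls, of CHRNA3, GHSR, GHRHR and CASC3. Leaving out 1 pair gave 1361 to 1893 calls, 785 to 967 rises and 576 to 926 falls (585 falls without pair 5 and 576 without pair 6), and 1164 of the 1896 genes passed in all 6 such fits. The difference between preparations then passed for 182 to 332 genes, 137 to 214 higher and 45 to 127 lower. The causes were not tested beyond the loss of libraries. RLE size factors, library totals, a stricter or no filter and non-robust estimation kept the counts of changed genes within 1.5 times and reversed no named gene.

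Of the genes whose sign turned, CHRNA3, which fell over all pairs, was at 0.039 in replicates 1 to 3, and the others had not passed. CYP1A1 was at -0.10 and CGA at 0.017 in replicates 1 to 3, NR5A1 at 0.0061 and POMC at 0.00017 in replicates 4 to 6. With 1 pair left out CGA ranged from -0.075 to 0.0021, LHB from -0.061 to 0.094, NR5A1 from -0.097 to 0.012 and POMC from -0.157 to 0.033. Depth limits replicates 1 to 3, where 8 of the 152 genes, MSX2 among them, had too few counts for testing.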
